A study of Homo sapiens with 12 samples.

Results

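NECTIN4, MEGF6, HRNR, SULF2 and FAM212B are 5 genes of the 19293 in a table of RNA sequencing counts from HT1080, an established human fibrosarcoma cell line. They were chosen by their log2 fold changes after radiation, with or without interferon gamma (IFNγ), which were among the largest in these same libraries. The increases are therefore described here and not tested. Each gene has 1 row in the table, and all 5 passed the filter on low counts that left 12160 genes for testing.

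The study holds 12 libraries in 4 groups of 3: HT1080 cells given IFNγ at 10 ng/ml and 20 Gy of radiation (the combination), 20 Gy alone, IFNγ alone at 10 ng/ml, and no treatment. Per the labels, all cells were harvested after 24 h, so 1 time, 1 dose and 1 line are covered. No label says whether the libraries of a group came from separate cultures, and the replicate spread behind each p-value may therefore be technical. In bulk RNA, more cells that express a gene and more RNA per cell cannot be told apart.

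Ionising radiation breaks DNA and stabilises the transcription factor p53, which raises the transcription of genes of cell cycle arrest, repair and death, and HT1080 cells carry normal p53. IFNγ signals through JAK kinases and raises genes of antigen presentation and antiviral defence. The 5 genes are usually discussed in other settings. NECTIN4 encodes an immunoglobulin-like adhesion molecule of epithelial cell contacts, which is a measles virus receptor and the target of an antibody-drug conjugate used in bladder cancer. SULF2 encodes an enzyme outside the cell that removes sulfate groups from heparan sulfate chains, and MEGF6 encodes a large protein with many EGF-like repeats. HRNR encodes hornerin, an S100 fused-type protein of the cornified envelope of skin. FAM212B, now named INKA2, encodes an intracellular protein of a family that binds and inhibits the kinase PAK4. The name surface and secreted genes thus fits the known biology of NECTIN4, SULF2 and MEGF6, and does not describe HRNR or FAM212B. SULF2 and INKA2 have been described as p53 targets.

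In the GENCODE 29 annotation NECTIN4, MEGF6, HRNR and FAM212B lie on chromosome 1 and SULF2 lies on chromosome 20, and all are on the minus strand. Chromosome 1 holds 10.3% of the tested genes that could be placed. NECTIN4, MEGF6 and HRNR have 1 annotated start each in RefSeq, SULF2 has 4 and INKA2 has 2. The promoters of the first 3 genes are shown because their start is not in doubt, as the minus-strand RefSeq sequence of build GRCh38.p14 from 250 bases before to 50 bases after the start. Capitals mark a p53 half-site, the consensus decamer that p53 dimers bind, or the TATA motif TATAAA, searched on both strands. Sequences without capitals hold no match to either motif. NECTIN4 lies at chr1:161089509-161089808, MEGF6 at chr1:3611459-3611758 and HRNR at chr1:152224144-152224443.
NECTIN4: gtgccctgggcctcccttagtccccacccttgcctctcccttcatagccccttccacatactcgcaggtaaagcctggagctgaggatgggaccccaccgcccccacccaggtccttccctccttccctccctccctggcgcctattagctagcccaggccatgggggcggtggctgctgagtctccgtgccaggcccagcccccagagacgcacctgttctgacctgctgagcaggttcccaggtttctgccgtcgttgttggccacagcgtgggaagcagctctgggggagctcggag
MEGF6: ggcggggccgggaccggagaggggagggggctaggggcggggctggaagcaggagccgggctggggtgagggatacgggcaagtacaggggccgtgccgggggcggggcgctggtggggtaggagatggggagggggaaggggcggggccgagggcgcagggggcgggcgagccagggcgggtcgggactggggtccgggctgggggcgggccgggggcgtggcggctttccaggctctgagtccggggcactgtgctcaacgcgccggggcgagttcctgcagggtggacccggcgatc
HRNR: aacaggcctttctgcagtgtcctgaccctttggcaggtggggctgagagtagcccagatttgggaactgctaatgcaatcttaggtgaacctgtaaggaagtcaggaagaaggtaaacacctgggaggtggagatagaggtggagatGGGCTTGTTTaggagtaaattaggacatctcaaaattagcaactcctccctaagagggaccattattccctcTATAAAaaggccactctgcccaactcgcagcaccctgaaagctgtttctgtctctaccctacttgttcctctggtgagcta

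The HRNR window was the only 1 of the 9 windows of the 5 genes with a match to the p53 half-site, which starts 103 bases before the annotated start. It also held TATAAA, starting 31 bases before the start. Over the 35116 RefSeq promoter windows of the same length, 6.63% held the half-site and 11.5% held TATAAA, and over the 14183 windows of tested genes the shares were 5.78% and 6.21%. None of the 9 windows held TGANTCA, the AP-1 motif, which 7.71% of all windows and 5.43% of those of tested genes held, or TTCNNNGAA, the STAT motif, which 7.66% and 6.28% held. The windows differed in base composition, with a G and C content of 65.7% for NECTIN4, 78% for MEGF6 and 48.7% for HRNR, against a median of 58.7% over all windows. A match describes letters in this window only.

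The libraries were of similar depth. Total counts ran from 10254314 to 10956421 in combination, 9675126 to 10084853 in irradiated, 10263803 to 11010656 in IFNγ-treated and 9762772 to 10550510 in untreated libraries. The 8 mitochondrially encoded transcripts in the table made up 4.25% to 4.34% of counts in combination, 4.44% to 4.46% in irradiated, 3.36% to 3.59% in IFNγ-treated and 3.53% to 3.61% in untreated libraries, so their share moved with radiation, as the 5 genes did, and its part in the results was not tested. Among 10 mesenchymal markers all were tested, with a summed level of 11130 to 13270 CPM over the 12 libraries. CPM are counts per 1e6 of the library total, which is unscaled for the marker sums and scaled for single genes. Of 15 epithelial and keratinocyte markers only 5 passed the filter (KRT8, KRT18, KRT10, DSP and CLDN4), while EPCAM had 4 and CDH1 had 8 counts over all 12 libraries. KRT5, KRT14 and KRT1, defining genes of keratinocytes, had 2, 2 and 1 counts in total. The summed level of the 15 was 609 to 624 CPM in combination, 463 to 482 CPM in irradiated, 546 to 553 CPM in IFNγ-treated and 443 to 474 CPM in untreated libraries, so it was highest with IFNγ, and its part in the results was not tested. Endothelial markers summed to at most 2.69 CPM in any library, and CD68 was the only 1 of 6 immune markers to pass the filter. The immune markers summed to 184 to 195 CPM in combination, 168 to 176 CPM in irradiated, 133 to 134 CPM in IFNγ-treated and 117 to 125 CPM in untreated libraries, so their sum was higher with radiation, as the 5 genes were, and its part in the results was not tested. The sum was mostly CD68, a lysosomal protein, with a log2 fold change of 0.46 ± 0.04 in irradiated against untreated cells. The leukocyte gene PTPRC had 23 counts in irradiated replicate 2, against 2 and 1 in the other irradiated libraries, LYZ had 14, against 4 and 4, and CD14 had 7, against 0 and 2. PTPRC, LYZ and CD14 had 4, 3 and 0 counts over the untreated libraries. Irradiated replicate 2 and, less clearly, untreated replicate 3 stood apart in GBP5, an IFNγ-inducible gene. GBP5 had 59 counts in irradiated replicate 2, against 10 and 3 in the other irradiated libraries. In untreated replicate 3 it had 13 counts, against 2 and 6 in the other untreated ones. Over all genes with enough counts, untreated replicate 1 differed most within its group. Its chi-square per degree of freedom was 2.673 against replicate 2 and 2.075 against replicate 3, while replicates 2 and 3 differed by 1.257. Some results that rest on irradiated replicate 2 or untreated replicate 3 are given with and without them.

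NECTIN4 was the most abundant of the 5 genes. It had 49.4, 49.0 and 52.4 CPM in combination libraries, 46.2, 45.5 and 48.2 CPM in irradiated, 3.86, 3.55 and 3.31 CPM in IFNγ-treated and 4.22, 5.18 and 3.96 CPM in untreated libraries. The 6 libraries with radiation lay far above the 6 without it. The log2 fold change was 3.38 ± 0.12 (SE, n = 3 per group) for irradiated against untreated cells and 3.81 ± 0.14 for the combination against IFNγ alone. In linear terms these were 10.4-fold (95% interval 8.77 to 12.4) and 14-fold (11.6 to 17.0). Both intervals take no account of the choice of the gene on these comparisons and are descriptions only.

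MEGF6 had 7.55, 7.65 and 8.36 CPM in combination libraries, 10.1, 10.8 and 9.62 CPM in irradiated, 0.791, 0.467 and 0.502 CPM in IFNγ-treated and 1.22, 1.04 and 0.812 CPM in untreated libraries. Its 4 groups did not overlap with each other. The low levels rest on few reads, with 18 counts over the 3 IFNγ libraries (exact 95% Poisson interval 10.7 to 28.4) and 32 over the untreated ones (21.9 to 45.2), intervals that cover counting error only. The log2 fold change was 3.29 ± 0.26 for irradiated against untreated cells and 3.72 ± 0.33 for the combination against IFNγ.

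SULF2, the heparan sulfate sulfatase, had 11.4, 13.1 and 12 CPM in combination libraries, 20.4, 11.7 and 15.8 CPM in irradiated, 1.88, 1.03 and 1.00 CPM in IFNγ-treated and 1.5, 1.60 and 3.35 CPM in untreated libraries. It varied most between replicates of the 5 genes in both untreated and irradiated cells. Its coefficient of variation over the 3 irradiated libraries was 26.9%, where counting error alone gives 7.89%, and over the 3 untreated libraries it was 48.4%, where counting error gives 21.3%. Irradiated replicate 2 was the lowest of its group and untreated replicate 3 the highest of its group, the same libraries that stood apart in GBP5. The log2 fold change of irradiated against untreated cells was 2.91 ± 0.33. Without both libraries, an alternative chosen after seeing the data, it was 3.53, which is over 1.5 times larger in linear terms. Leaving out the lowest irradiated and the highest untreated library was bound to raise it. For the combination against IFNγ it was 3.22 ± 0.41.

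HRNR had 9.81, 11.7 and 11.7 CPM in combination libraries, 14.1, 12.4 and 11.5 CPM in irradiated, 1.29, 0.840 and 1.40 CPM in IFNγ-treated and 1.13, 1.60 and 2.13 CPM in untreated libraries. Within each radiation state the groups with and without IFNγ overlapped. The log2 fold change was 2.97 ± 0.22 for irradiated against untreated cells and 3.23 ± 0.25 for the combination against IFNγ.

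FAM212B, the PAK4 inhibitor family gene, had 15.8, 14.3 and 15.9 CPM in combination libraries, 17.9, 16.1 and 18.4 CPM in irradiated, 1.98, 2.15 and 1.30 CPM in IFNγ-treated and 2.35, 2.64 and 2.23 CPM in untreated libraries. The libraries of its 4 groups did not overlap. The log2 fold change was 2.85 ± 0.17 for irradiated against untreated cells and 3.07 ± 0.20 for the combination against IFNγ.

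**Figure D1:**
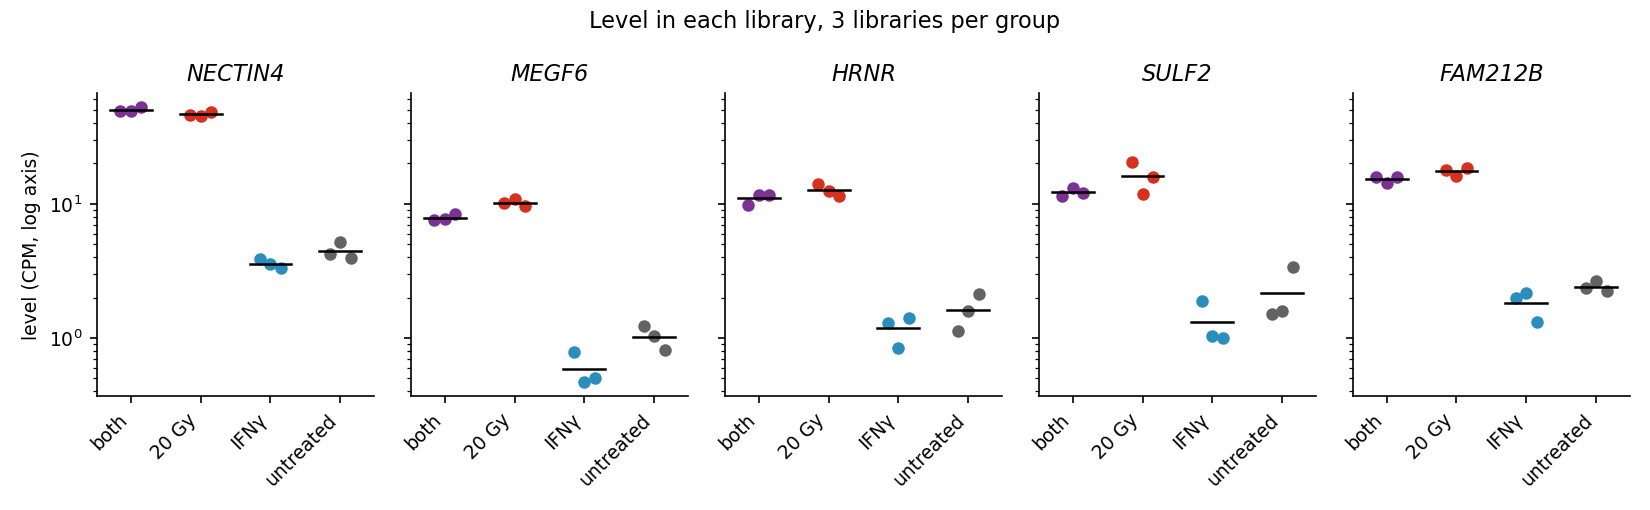
Level of each gene in every library (CPM on a log axis), with a point per library, 3 libraries per group, and a line at the group mean. In all 5 panels the combination and 20 Gy libraries lie above the IFNγ and untreated libraries, for NECTIN4 at 45.5 to 52.4 CPM against 3.31 to 5.18 CPM.

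For all 5 genes the libraries with radiation did not overlap those without it, in cells given IFNγ and in cells not given it. Since the genes were chosen for these differences, this count is a description only. Over all tested genes, 30.4% were higher without overlap in irradiated than in untreated cells and 31.9% in combination than in IFNγ-treated cells. By edgeR's quasi-likelihood test at a Benjamini-Hochberg adjusted p under 0.05, 56.1% of tested genes were called after radiation alone, 27.9% as higher, and 60.7% after radiation in the presence of IFNγ, 30.3% as higher. In irradiated against untreated cells 26 genes were called higher by at least 8-fold, 0.214% of those tested, with NECTIN4 and MEGF6 among them. In the combination against IFNγ this held for 28 genes, 0.23% of those tested, with all 5 genes among them. The 5 genes were chosen on these comparisons, so their place in both counts is a description only.

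Among the 10489 genes with a mean of at least 2 log2 CPM, NECTIN4, HRNR, SULF2 and FAM212B ranked 2, 3, 4 and 6 by log2 fold change in irradiated against untreated cells. Rank 1 was held by IDO1, with 10 counts over the 3 irradiated libraries and 0 in untreated cells, 8 of them in a single library, which was not called. In the combination against IFNγ the same 4 genes ranked 1 to 4. MEGF6 lay under that floor, at a mean of 1.57 log2 CPM. With a floor of 1.5 log2 CPM, which leaves 10893 genes, NECTIN4, MEGF6, HRNR, SULF2 and FAM212B ranked 2, 3, 4, 5 and 7 after radiation alone and 1 to 5 in the combination against IFNγ. Just outside the group were FUCA1, a lysosomal fucosidase, with a log2 fold change of 2.87 ± 0.14 after radiation alone, above FAM212B, and CSMD3, with 2.85 ± 0.18, next after FAM212B. Among all 12160 tested genes the 5 ranked from 21 to 42 after radiation alone and from 9 to 25 with IFNγ.

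**Figure D2:**
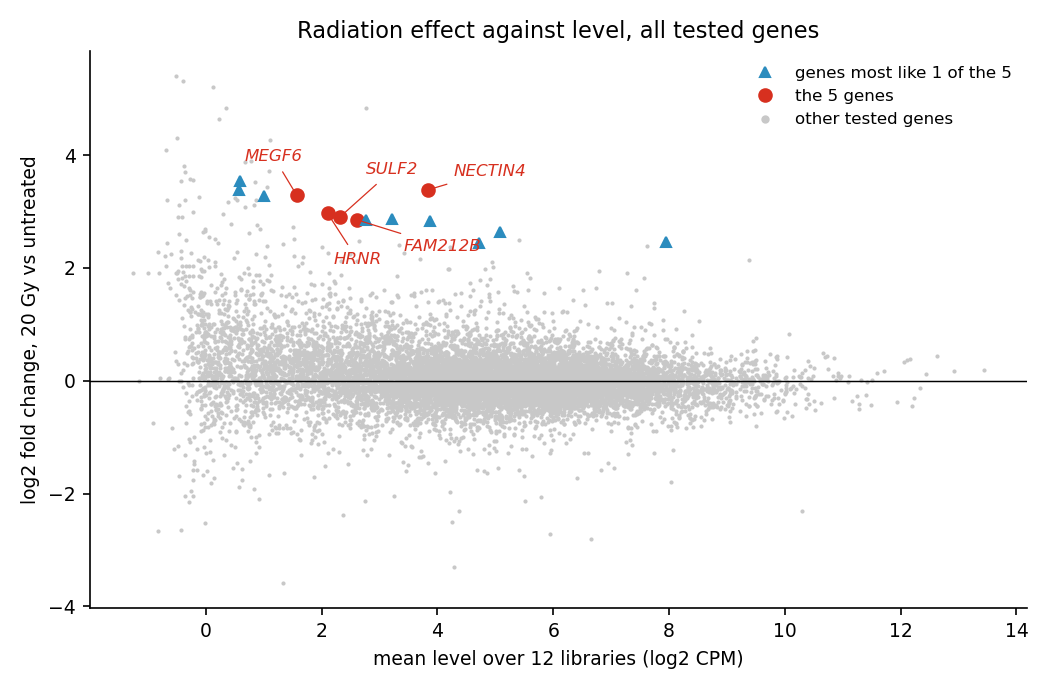
Log2 fold change of irradiated against untreated cells (vertical axis) against the mean level over the 12 libraries (horizontal axis, log2 CPM), with a grey point for each of 12160 tested genes. The 5 genes (red) lie at the upper edge for their level, between 2.85 for FAM212B and 3.38 for NECTIN4, and blue triangles mark the genes with the most similar pattern over the libraries.

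Levels can be compared between genes only per length. Per kilobase of annotated exon (GENCODE 29, all transcripts merged), NECTIN4 stood at 14.4 CPM in combination, 13.3 in irradiated, 1.02 in IFNγ-treated and 1.27 in untreated cells. The other 4 genes lay between 1.12 and 2.43 CPM per kilobase in combination cells, 1.31 and 2.78 in irradiated, 0.0833 and 0.288 in IFNγ-treated and 0.145 and 0.382 in untreated cells. NECTIN4 in untreated cells was thus near the level that MEGF6 and HRNR had after radiation, on this scale. The exon lengths come from an annotation other than the one behind the counts.

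IFNγ was the treatment not used to choose the genes, and its effect was tested in unirradiated and in irradiated cells, in the same libraries that chose the genes. In unirradiated cells the log2 fold changes of IFNγ-treated against untreated libraries were -0.32 ± 0.18 for NECTIN4, -0.80 ± 0.40 for MEGF6, -0.45 ± 0.32 for HRNR, -0.70 ± 0.50 for SULF2 and -0.40 ± 0.25 for FAM212B. All 5 estimates were below 0, as were those of 51.3% of tested genes. None of the 5 was called by edgeR's test over all tested genes (adjusted p from 0.132 for MEGF6 to 0.327 for SULF2), while 29.1% of tested genes were. At an unadjusted p under 0.05 the count was also 0 of 5, with MEGF6 just above that limit (unadjusted p = 0.0508, edgeR), and DESeq2 called 0. The libraries of NECTIN4, MEGF6 and FAM212B did not overlap, with the 3 IFNγ libraries below the 3 untreated ones, as was the case for 19.7% of tested genes. The 95% intervals still allow large decreases at these counts, down to 0.329-fold for MEGF6 and 0.293-fold for SULF2, and increases, up to 1.02-fold for NECTIN4, 1.13-fold for HRNR and 1.29-fold for SULF2. Without untreated replicate 3 the estimate was -0.25 for SULF2 and -0.22 for HRNR, nearer to 0 than with it. For NECTIN4, MEGF6 and FAM212B it was then -0.39, -0.93 and -0.45, further from 0.

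In irradiated cells counts were higher and the estimates of the IFNγ effect were tighter. MEGF6 was lower in the combination than after radiation alone, at 7.85 ± 0.44 CPM and 10.2 ± 0.62 CPM (SD, n = 3 each), a log2 fold change of -0.37 ± 0.13 (95% interval -0.63 to -0.12, adjusted p = 0.0204, edgeR quasi-likelihood test), with all 3 combination libraries below all 3 irradiated ones. It was the only 1 of the 5 that was called, against 26.9% of tested genes called. The MEGF6 call ended without irradiated replicate 2 (-0.32, adjusted p = 0.0909), combination replicate 1 (-0.34, adjusted p = 0.0673) or combination replicate 2 (-0.35, adjusted p = 0.0701), and with DESeq2 (-0.38, adjusted p = 0.171), and its adjusted p ranged from 0.00872 to 0.171 over 18 alternatives.

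SULF2 stood at -0.39 ± 0.18, with an adjusted p of 0.141 (edgeR). It was called without irradiated replicate 2 (-0.57, adjusted p = 0.00111), without untreated replicate 3 (-0.39, adjusted p = 0.0382) and with no filter on low counts (-0.38, adjusted p = 0.00312), and its adjusted p ranged from 0.000222 to 0.422 over the alternatives. HRNR (-0.19 ± 0.12) and FAM212B (-0.19 ± 0.10) were not called, with 95% intervals of -0.42 to 0.04 and -0.38 to 0.002. The 3 combination libraries of FAM212B lay below the 3 irradiated ones, as did those of MEGF6, a pattern seen in 19.8% of tested genes.

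In irradiated cells the estimates of MEGF6, HRNR, SULF2 and FAM212B lay below 0, as did 52.2% of tested genes, and that of NECTIN4 lay above 0. NECTIN4 had 50.3 ± 1.87 CPM in combination and 46.6 ± 1.42 CPM in irradiated cells (SD, n = 3 each), a log2 fold change of 0.11 ± 0.06 (95% interval -0.01 to 0.23), with an adjusted p of 0.176 (edgeR), and was not called. Its 3 combination libraries lay above its 3 irradiated libraries, as in 20.5% of tested genes. The IFNγ effect on NECTIN4 was thus 0.43 ± 0.19 higher in irradiated than in unirradiated cells on the log2 scale. For the other 4 genes this difference ran from 0.21 ± 0.26 for FAM212B to 0.43 ± 0.42 for MEGF6. No p is given for it, because it is also the difference between both radiation effects on which the genes were chosen.

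**Figure D3:**
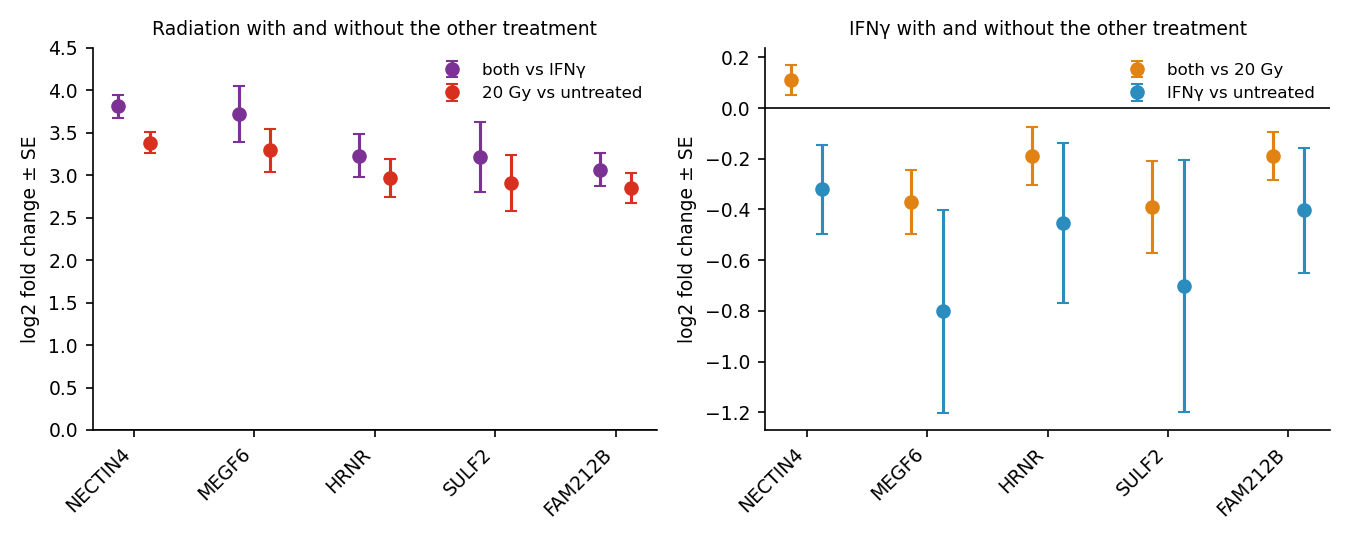
Log2 fold change ± SE (3 libraries per group) for each gene. The left panel shows radiation in the presence (purple) and absence (red) of IFNγ, and the right panel shows IFNγ in irradiated (orange) and unirradiated (blue) cells. Radiation effects lie between 2.85 and 3.81 and IFNγ effects between -0.80 and 0.11, with the only value above 0 that of NECTIN4 in irradiated cells.

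The order of the 4 groups by mean level was the same for MEGF6, HRNR, SULF2 and FAM212B: radiation alone, the combination, untreated and IFNγ alone. For HRNR and SULF2 the neighbours in this order overlapped, both between the radiation groups and between the groups without radiation. NECTIN4 was highest in the combination, followed by radiation alone, untreated and IFNγ alone.

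The pattern of each gene was compared with that of the tested genes outside the 5, as the root mean square difference over the 12 libraries in log2 CPM after centring on the untreated mean. Among these, FUCA1 was the closest to MEGF6 (0.25), SULF2 (0.32) and FAM212B (0.19). Its mean level was 22.7 CPM in combination, 27.8 CPM in irradiated, 2.83 CPM in IFNγ-treated and 3.79 CPM in untreated cells. The gene closest to HRNR was SUGCT (0.24), which encodes a mitochondrial enzyme of glutarate metabolism, followed by CSMD3 (0.28) and ABCA12 (0.28), a lipid transporter of keratinocytes. For NECTIN4 the first places went to ABCA12 (0.47), CTD-3088G3.8 (0.48) and CCDC148 (0.51). The next places were held by CTD-3088G3.8 (0.34) and SUGCT (0.37) for MEGF6, by SUGCT (0.36) and the p53 target FDXR (0.43) for SULF2, and by BTG2 (0.25) and CDKN1A (0.26), both p53 targets that slow the cell cycle, for FAM212B. Among themselves the 5 genes lay 0.30 (HRNR and SULF2) to 0.68 (NECTIN4 and SULF2) apart, so that MEGF6 was nearer to NECTIN4 (0.44) than ABCA12 was, HRNR was nearer to SULF2 than FUCA1 was, and FAM212B (0.31) was the next after FUCA1 for MEGF6. These distances are descriptions over 12 libraries and include counting error, which is larger for genes of low level. Among these nearest genes, the label p53 target was given only to members of the list of known targets described next. FUCA1, ABCA12, SUGCT, CSMD3, CTD-3088G3.8 and CCDC148 are not on that list, and whether they are p53 targets was not tested. The lack of a label therefore does not mean that a gene is unrelated to p53.

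As a yardstick, 20 known p53 targets were read in the same fits. All 20 rose in irradiated against untreated cells, where 27.9% of all tested genes rose, and their median was 1.49 on the log2 scale, against 0.01 over all tested genes. The largest called values were those of FDXR (2.63 ± 0.08), TP53INP1 (2.49 ± 0.08) and CDKN1A (2.45 ± 0.04), each below the values of the 5 genes. The 5 genes were chosen for large values in this comparison, so this order is a description only. With IFNγ alone 8 of the 20 fell and 1 rose, against 14.1% and 15% of all tested genes, and the median was -0.11. CDKN1A was at -0.31 ± 0.04 in that comparison. In the combination against radiation alone 2 of the 20 fell and 3 rose, against 12.4% and 14.5% of all tested genes.

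HRNR sits in a cluster of skin barrier genes on chromosome 1, and both tested neighbours rose after radiation too. The next genes in the table on 1 side, FLG and FLG2, encode filaggrin and filaggrin-2, which are S100 fused-type proteins like hornerin. FLG had 29.6, 31.6 and 38.2 CPM in combination libraries, 44.8, 39.2 and 41.3 CPM in irradiated, 7.12, 7.38 and 7.93 CPM in IFNγ-treated and 11.5, 9.69 and 10.4 CPM in untreated libraries. It rose by a log2 fold change of 1.99 ± 0.10 after radiation alone (adjusted p = 2.23e-25, edgeR) and 2.15 ± 0.12 in the combination against IFNγ. Its log2 fold change with IFNγ was -0.33 in irradiated cells (adjusted p = 0.00032, edgeR) and -0.49 in unirradiated cells (adjusted p = 0.00303, edgeR).

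FLG2 had few reads, with 34 counts over the combination, 53 over the irradiated, 3 over the IFNγ-treated and 7 over the untreated libraries. It rose after radiation alone by 2.90 ± 0.62 (adjusted p = 8.48e-07, edgeR). On the other side of HRNR, RPTN and TCHH had 5 and 30 counts over all 12 libraries and were not tested. GENCODE 29 places a long antisense transcript, FLG-AS1, over HRNR, FLG and FLG2 on the opposite strand. The libraries were stranded, but the strand setting of the counting is not given in the sources used here, so reads of FLG-AS1 and of the 3 genes cannot be told apart.

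The genes beside the other 4 members changed less. The 2 nearest genes in the table on each side of the 5 genes made 20 places, of which 13 could be tested, and these neighbours were looked up after the values were seen. After radiation alone 5 of the 13 rose and 5 fell, against 27.9% and 28.2% of all tested genes. Apart from FLG and FLG2, the largest were NCOA3 beside SULF2 (0.38 ± 0.07) among those that rose and ARHGAP30 beside NECTIN4 (-0.56 ± 0.08) among those that fell. FAM212B overlaps RAP1A and SULF2 overlaps NCOA3 on the opposite strand. RAP1A stood at -0.06 ± 0.06 after radiation alone, against 2.85 ± 0.17 for FAM212B, and NCOA3 at 0.38 ± 0.07, against 2.91 ± 0.33 for SULF2. NECTIN4 and SULF2 also overlap antisense transcripts that are not in the table, FAM212B overlaps another annotated gene on its own strand, and MEGF6 overlaps the microRNA gene MIR551A.

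**Figure D4:**
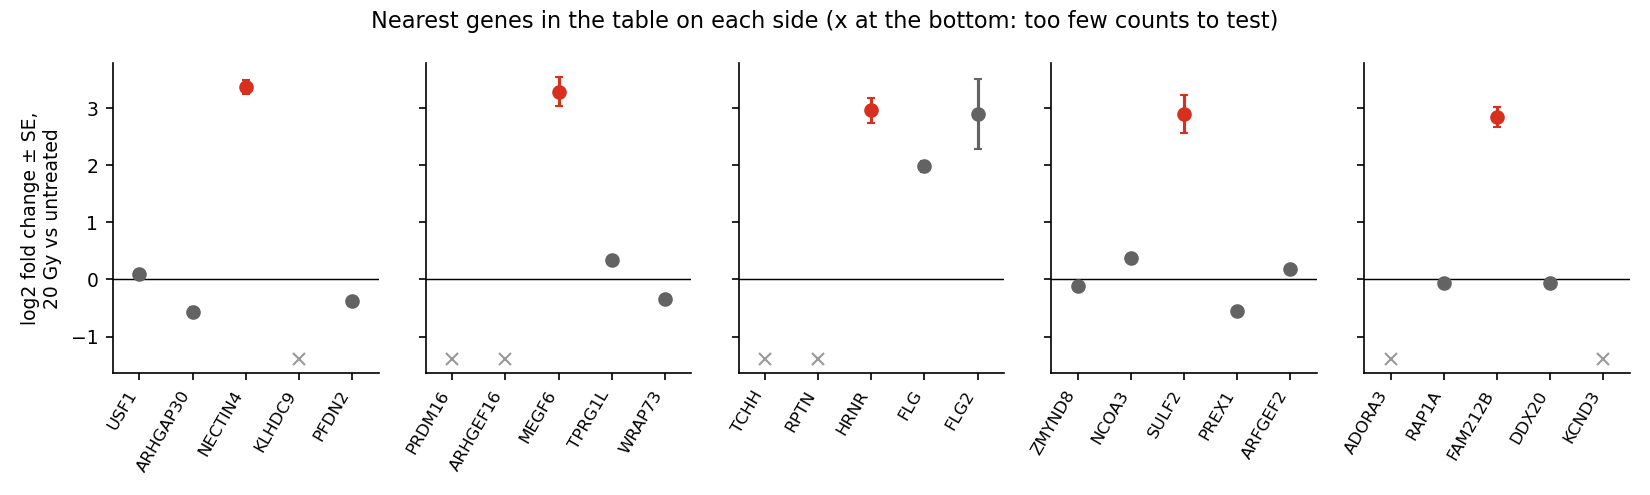
Log2 fold change ± SE of irradiated against untreated cells (3 libraries per group) for each of the 5 genes (red, centre) and the 2 nearest genes in the table on each side (grey), in chromosome order with no scale of distance. Crosses at the bottom mark genes with too few counts to test. FLG (1.99) and FLG2 (2.90) beside HRNR lie far above 0, while the other neighbours lie between -0.56 and 0.38.

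Relatives of the 5 genes were read from lists of their families and pathways, without the 5 genes themselves. The nectin family and its partners had 6 tested genes of 12 in the table, and after radiation alone 2 rose and 2 fell, against 27.9% and 28.2% of all tested genes, with a median of 0.05. CADM1, a nectin-like adhesion molecule, rose by 1.21 ± 0.05 and NECTIN3 by 0.67 ± 0.05, and AFDN, the nectins' link to actin, fell by 0.37 ± 0.04 on the log2 scale. NECTIN1 (0.05 ± 0.06) and NECTIN2 (0.05 ± 0.04) were not called. With IFNγ alone 3 of the 6 rose and 3 fell, against 15% and 14.1% of all tested genes, and PVR, the poliovirus receptor, rose by 0.76 on the log2 scale, to 278 CPM in IFNγ-treated cells, against 164 CPM in untreated cells.

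Among 5 tested relatives of MEGF6 with EGF-like or scavenger repeats, 1 rose after radiation alone, STAB2 (0.87 ± 0.36), and 0 fell, against 27.9% and 28.2% of all tested genes. STAB2 had only 123 counts over all 12 libraries. In the combination against IFNγ it was not called (0.685 ± 0.445, adjusted p = 0.168, edgeR). MEGF9 (0.06 ± 0.09) was not called, and MEGF10 and MEGF11 had 11 and 77 counts over all 12 libraries and were not tested. With IFNγ alone 1 of the 5 rose and 2 fell, against 15% and 14.1% of all tested genes.

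Beyond FLG and FLG2, the list of S100 fused-type and cornified envelope genes had 3 more tested members of 17 in the table. IVL, which encodes involucrin, rose by 1.03 ± 0.24 after radiation alone, so 3 of 5 rose and 0 fell, against 27.9% and 28.2% of all tested genes. TGM1, a transglutaminase (0.76 ± 0.45), and PPL, periplakin (-0.24 ± 0.42), were not called. In the combination against IFNγ all 5 rose, against 30.3% of all tested genes. Of these, FLG2, TGM1 and PPL had only 97, 111 and 93 counts over all 12 libraries. PPL had 0.978 CPM in combination, 0.359 CPM in IFNγ-treated and 0.897 CPM in untreated cells. With IFNγ alone 0 of the 5 rose and 2 fell, against 15% and 14.1% of all tested genes. The remaining 12, among them LOR, SPRR1A and SPRR1B, had too few counts to test, with at most 30 over the 12 libraries. Of 9 tested S100 genes, 5 rose and 1 fell after radiation, against 27.9% and 28.2% of all tested genes: S100A2 (0.41 ± 0.07), S100A13 (0.32 ± 0.07) and S100A11 (0.25 ± 0.04) were the largest called changes.

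For SULF2 the sister enzyme SULF1 had 10 counts over all 12 libraries and was not tested. Heparan sulfate core proteins rose after radiation in 9 of 11 cases and fell in 0, against 27.9% and 28.2% of all tested genes, with a median log2 fold change of 0.55, and the same counts held in the combination against IFNγ. Glypican GPC1 (1.37 ± 0.05), perlecan HSPG2 (1.35 ± 0.08) and syndecan SDC2 (0.88 ± 0.11) changed most. With IFNγ alone 8 of these 11 fell and 1 rose, against 14.1% and 15% of all tested genes, with a median of -0.23. The enzymes that build and modify the chains were split after radiation, with 4 higher and 6 lower of 15, against 27.9% and 28.2% of all tested genes, and a median of -0.12. Of the 3 genes for enzymes that add sulfate groups of the kind that SULF2 removes, HS6ST3 rose (0.87 ± 0.17), HS6ST1 fell (-0.43 ± 0.09) and HS6ST2 was not called (-0.13 ± 0.31). Their levels were 6.90, 15.8 and 1.49 CPM in irradiated cells, against 3.73, 21.3 and 1.64 CPM in untreated cells. NDST1 (0.59 ± 0.03), which starts chain sulfation, rose, and the heparanase HPSE fell by 0.53 ± 0.08 on the log2 scale.

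The PAK kinases and their partners, the setting of FAM212B, were mostly lower after radiation, with 7 of 10 lower and 0 higher, against 28.2% and 27.9% of all tested genes, and a median of -0.14. ARHGEF2 (-0.64 ± 0.04), the GTPase RAC1 (-0.38 ± 0.03) and PAK1 (-0.28 ± 0.05) changed most, and PAK4 was at -0.26 ± 0.05. The sister gene FAM212A, with only 132 counts over all 12 libraries, had 0.76 ± 0.40 after radiation alone and was not called. In the combination against IFNγ it had 0.83 ± 0.38 and was called as higher (adjusted p = 0.0456, edgeR). With IFNγ alone 2 of the 10 rose and 0 fell, against 15% and 14.1% of all tested genes. All lists were put together with earlier results of these data known.

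**Figure D5:**
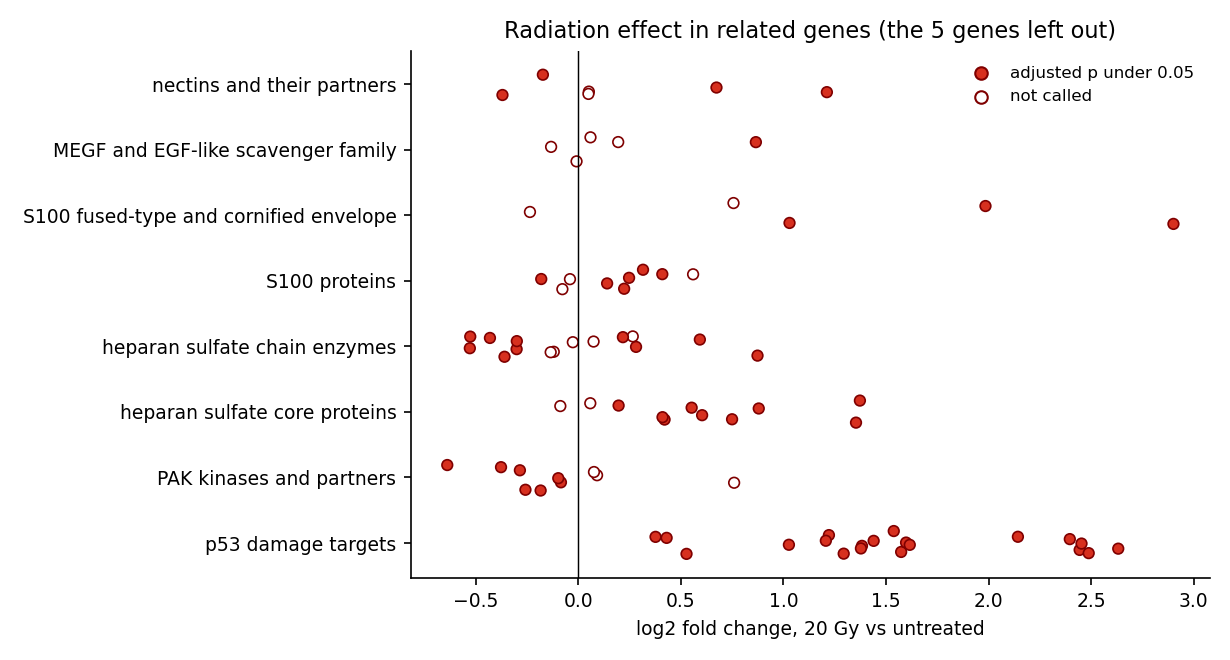
Log2 fold change of irradiated against untreated cells for the tested genes of 8 lists, without the 5 genes, with a point per gene, filled where the adjusted p was under 0.05. The points are spread vertically only to keep them apart. FLG2 (2.90) and FLG (1.99) lead the cornified envelope list, the p53 targets lie between 0.38 and 2.63, and the PAK list lies mostly below 0.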

How the data were processed

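HT1080 RNA was sequenced in 12 libraries with a stranded total RNA kit after ribosomal RNA removal, per the labels' protocols, though the series' design text names an mRNA protocol. The authors deposited raw whole-number counts per gene, without normalization. Build hg19 (GRCh37), Cuffdiff 2.2.1, Cufflinks, TopHat2 2.0.13 and FastQC 0.11.3 are named, per the submitters' processing notes. Not given in the sources used here are the counting tool, its strand setting and its annotation. Gene columns with shifted headers were read by content, and each of 12 columns matched a library title.

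Genes were filtered with filterByExpr (12160 of 19293 tested, and the rest held 0.0678% of counts), scaled with TMM and fitted over all 12 libraries with edgeR 4.0.16 in R 4.3.3 (robust quasi-likelihood F test, Benjamini-Hochberg adjustment over all tested genes, called at an adjusted p under 0.05). Standard errors came from the fitted weights and moderated dispersion. Log2 CPM used a prior count of 2. Libraries held 9675126 to 11010656 counts, which limits the precision for genes with few counts. The fit was tested on simulated counts. Replicates differed by more than counting noise, so none was a copy.

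The members and lists were chosen with earlier results of these data known. Named genes are the 5, the 3 other tested genes nearest to each in pattern, and the 3 largest called changes of each list after radiation alone. Genes outside this rule were named after their values were seen, and 1 gene of these lists is not reported here. Alternatives were RLE factors, library totals, no filter, DESeq2 1.42.0, each library left out, and the replicate number as a block. Promoter windows came from RefSeq GRCh38.p14 and gene order, overlaps and exon lengths from GENCODE 29, another build than that of the counts, so no coordinates are given for counts.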

Additional observations from a re-analysis of the deposited data

Results flagged for a closer look

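The estimates of the IFNγ effect on NECTIN4 pointed in opposite directions in irradiated and unirradiated cells. The 3 combination libraries (49.0 to 52.4 CPM) lay above the 3 irradiated libraries (45.5 to 48.2 CPM), while the 3 IFNγ libraries (3.31 to 3.86 CPM) lay below the 3 untreated libraries (3.96 to 5.18 CPM). On the log2 scale the effect was 0.43 ± 0.19 (SE) higher in irradiated cells. For the other genes it was also higher there, from 0.21 ± 0.26 for FAM212B to 0.43 ± 0.42 for MEGF6. The difference for NECTIN4 was not tested, since the gene was chosen on the comparisons that it is made of. Neither IFNγ effect on NECTIN4 was called on its own.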

How the results depend on the processing

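In both radiation comparisons the log2 fold changes of all 5 genes kept their direction under each of 18 alternatives, and ranged from 2.70 (SULF2, a library left out) to 4.00 (MEGF6, a library left out). Since the genes were chosen for large values in these comparisons, the kept direction is a description only. The IFNγ effect in unirradiated cells kept its direction and was called for none of the 5 under any of the 18. In irradiated cells MEGF6 was no longer called with DESeq2 (-0.38) or, in an alternative chosen after seeing the data, without both irradiated replicate 2 and untreated replicate 3 (-0.32), and with each library left out it ranged from -0.42 to -0.32. SULF2 became called with no filter (-0.38) and without both libraries (-0.57), and ranged from -0.57 to -0.18 with each library left out. The cause was not tested.

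Same-numbered libraries of different groups did not deviate together (correlations from -0.071 to 0.054 over 18 pairs), so no pairing by number was seen. These correlations include counting error and cannot show whether same-numbered libraries were prepared together. With the replicate number as a block, 3525 genes were called for IFNγ against untreated, against 3544 without it, and 6804 for radiation against untreated, against 6816. With library totals in place of TMM, 1227 genes were higher and 2717 lower for IFNγ against untreated cells, against 1829 and 1715, and 1398 and 2278 for the combination against radiation, against 1761 and 1509. Depth limits the IFNγ effect in unirradiated cells, where MEGF6 had 18 counts over 3 libraries.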
